A study of Mus musculus with 18 samples.

Results

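The genes described here carry symbols of nuclear-encoded subunits of the respiratory chain and of ATP synthase, and were measured in J774.1 cells, a mouse macrophage line. They were chosen by symbol alone (Nduf followed by a, b, c, s or v and a digit, Cox4 to Cox8, Uqcr, Atp5, and Sdha to Sdhd) and comprise 85 of the 18204 genes in the table. Of these, 40 belong to complex I by symbol, 4 to complex II, 8 to complex III, 15 to complex IV and 18 to ATP synthase. A further 6 rows whose symbols mark pseudogenes were set aside. Subunits with other symbols are not covered, so statements on a complex refer to its listed members.

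Complexes I, III and IV pass electrons from NADH and ubiquinol to oxygen and pump protons across the inner mitochondrial membrane, and ATP synthase uses the resulting gradient to make ATP. Complex II, succinate dehydrogenase, feeds electrons from the TCA cycle into the same chain without pumping. Macrophages are known for shifting between this route and glycolysis when they are activated, and succinate oxidation at complex II is one of the steps involved.

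RNA-seq covered 18 samples in 6 groups of 3. Wildtype cells and Ctbp1/2 double knockout (dKO) cells were each given MTOB, 4-Cl-HIPP or a single vehicle (PBS/DMSO) for 4 h. MTOB (the keto acid of methionine, 1.5 mM) and 4-Cl-HIPP (the oxime of a chlorophenyl keto acid, 250 µM) are meant to occupy the substrate pocket of CTBP1 and CTBP2, transcriptional co-repressors with an NADH-binding dehydrogenase fold. The comparisons ask whether a response needs CTBPs. All groups share the J774.1 background, and the dKO cells were grown out as a monoclonal line after Cas9 editing, so loss of CTBPs and descent from 1 clone cannot be told apart. The labels number the samples of a group 1 to 3 and the methods call them a biological triplicate.

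The values are TPM, a unit of transcript abundance scaled to the same total in each sample. They are also corrected for transcript length and can therefore be set side by side between genes. Each sample summed to 999766 to 999897 TPM, and read depth is not known from this unit. Ctbp1 lay at 170 to 238 TPM in the wildtype samples and at 19.7 to 31.5 TPM in the dKO samples, whereas Ctbp2, edited as well, lay at 87.8 to 96.9 TPM and 68.5 to 81.9 TPM. The paper reports a premature stop and a frameshift in each gene, and western blots in which both proteins were lost. The RNA level does not measure such a loss. Of 8 macrophage markers all were present, among them Csf1r at 612 to 942 TPM and Cd68 at 542 to 703 TPM, but Adgre1 ranged from 6.70 to 107 TPM and Itgam from 11.3 to 65.3 TPM. Col1a1 and Pecam1, markers of fibroblasts and endothelium, reached at most 1.05 and 1.43 TPM.

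The subunit genes together took 22168 to 24328 TPM, 2.22% to 2.43% of all transcripts. All 85 passed the limit on expression (a mean normalized count over samples above 0.222, the 10th percentile), as did 16383 genes in all. The most abundant was Atp5b, the catalytic beta subunit of ATP synthase, with a mean of 1435 TPM and a range of 1375 to 1579 TPM. Atp5l, a subunit of the membrane part, followed at 767 TPM, and Atp5g3, a c-ring gene, at 735 TPM. In complex IV the highest were Cox4i1 (704 TPM) and Cox5a (653 TPM), both known to assemble early with the catalytic core. Complex III was led by Uqcrh, the hinge protein, at 597 TPM and closed by Uqcrfs1, the Rieske iron-sulfur protein, at 128 TPM. Ndufa4, which carries a complex I symbol but is known as a complex IV subunit, stood first among the 40 at 550 TPM.

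Median levels were 160 TPM in complex I, 180 TPM in complex II, 342 TPM in complex III, 379 TPM in complex IV and 386 TPM in ATP synthase. Within complex II, Sdhd (a membrane anchor) had 362 TPM, and Sdha (the flavoprotein, 188 TPM), Sdhb (the iron-sulfur protein, 173 TPM) and Sdhc (the other anchor, 158 TPM) lay close together. At the low end were the isoforms known from other tissues. Cox7a1, the heart and muscle form, ranged from 0 to 13.3 TPM, and Cox6a2, another muscle form, from 0.424 to 3.71 TPM. Ndufa4l2, known as a hypoxia-induced paralog of Ndufa4, was listed above 0 in 3 of 18 samples, with a mean of 0.098 TPM. The tissue-restricted Cox6b2, Cox7b2, Cox8b and Cox8c were not among the genes listed for these data, so no level can be given.

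**Figure D1:**
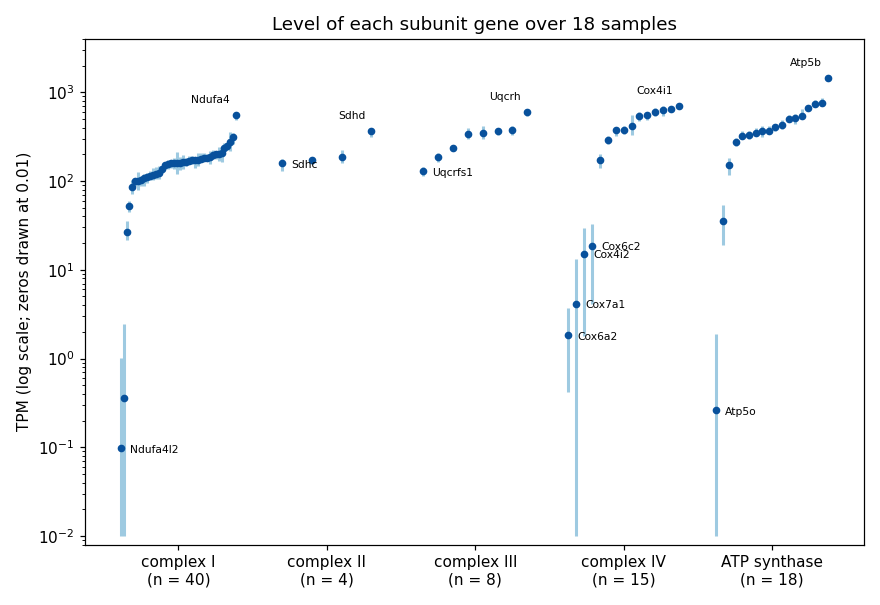
Level of each of the 85 subunit genes in TPM on a log axis, grouped by complex. Points are means over 18 samples and bars run from the lowest to the highest sample, with zeros drawn at 0.01 TPM. Most genes lie between 50 and 1435 TPM with short bars, and the long bars belong to the isoforms and copies at the bottom.

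Some rows share sequence with a near-identical copy, so their counting is uncertain. Ndufb4 had 26.5 TPM while Ndufb4c, annotated as a transcribed processed pseudogene, had 174 TPM. The pseudogenes Cox6c2 (18.6 TPM) and Ndufs6b (0.354 TPM) stand beside Cox6c (377 TPM) and Ndufs6 (183 TPM). The symbol Atp5o occurs for 2 identifiers whose gene bodies overlap on chromosome 16 (GRCm39), of which ENSMUSG00000022956 carried 402 TPM and ENSMUSG00000116933 had 0.26 TPM. Of the 85, 82 are annotated as protein-coding, and they lie on 19 chromosomes.

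Across all samples the abundant subunits varied little. Of the 76 with a mean of at least 50 TPM, 63 (82.9%) had a highest group mean less than 1.2 times their lowest, against 55.8% of the 3275 genes of that level. Their median coefficient of variation over 18 samples was 6.47%, and that of all such genes was 8.48%. The widest spread among them was 1.39 times, for Ndufc1, a small membrane-arm subunit of complex I.

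With MTOB, subunit levels in wildtype cells were slightly lower for most members. The members' median difference was -0.07 on the log2(TPM + 1) scale, the scale of every difference given here, against -0.01 for all 16383 genes and -0.02 for the genes of at least 50 TPM. Of the 85, 69 (81.2%) were lower, against 51.6% of all genes and 57% of the abundant ones. By complex, 36 of 40 were lower in complex I, 4 of 4 in complex II, 6 of 8 in complex III, 10 of 15 in complex IV and 13 of 18 in ATP synthase. In dKO cells 64 (75.3%) were lower, against 52.5% of all genes, with a median of -0.05 (-0.02 when TPM were rescaled by median ratios). The genotypes share no samples in these comparisons, and 55 members (64.7%) were lower in both, against 34.1% of all genes and 43% of abundant genes, while 6 were higher in both, against 28% of all genes. With TPM rescaled by median ratios, 47 members (55.3%) were lower in both, against 30.1% of all genes. These are bulk samples, in which fewer cells of one state and less RNA per cell cannot be told apart.

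Few of these small differences passed the test. In wildtype, limma with Benjamini-Hochberg adjustment over all genes called 3 members (3.53%) at an adjusted p below 0.05, fewer than the 7.26% of all genes, and none also exceeded 1.5-fold, against 2.01%. All 3 were lower, and the share of all genes called lower was 3.46%. In dKO cells 2 members (2.35%) were called, both lower and neither beyond 1.5-fold, against 6.58% of all genes called, 3.54% called lower and 1.63% beyond 1.5-fold. Of the 3275 genes of at least 50 TPM, 487 were called in wildtype (259 lower) and 477 in dKO (276 lower). These are larger shares than among all genes or among the members. The 3 MTOB samples lay below all 3 vehicle samples for 15 members (17.6%) in wildtype, where 12% of all genes did so, and for 20 (23.5%) in dKO, where 11.5% did.

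Sdhd, the anchor of succinate dehydrogenase that helps bind heme and ubiquinone, was called in both genotypes. It had 376, 395 and 366 TPM in the wildtype vehicle samples and 340, 335 and 344 TPM with MTOB. In dKO cells it had 371, 380 and 372 TPM with vehicle and 353, 344 and 317 TPM with MTOB. The groups did not overlap in either genotype. The log2 differences were -0.16 ± 0.04 (SE, adjusted p = 0.0254) in wildtype and -0.15 ± 0.04 (adjusted p = 0.0392) in dKO. With 4-Cl-HIPP the 6 samples lay between 358 and 381 TPM, within or beside the vehicle range.

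The remaining subunits of complex II were also lower with MTOB in both genotypes, without passing the test. Sdha had 203, 202 and 223 TPM in dKO vehicle samples and 178, 160 and 195 TPM with MTOB (-0.24 ± 0.08, adjusted p = 0.0964), and in wildtype its groups overlapped. Sdhb lay between 157 and 172 TPM in wildtype with MTOB, below the 173 to 181 TPM with vehicle. Summed over the 4 genes, complex II had 888, 923 and 873 TPM with vehicle and 841, 826 and 822 TPM with MTOB in wildtype, and 908, 922 and 938 TPM against 859, 817 and 802 TPM in dKO. The MTOB samples were the lowest in each genotype, and their means were 7.23% and 10.5% below vehicle. In wildtype the sums of complexes I, III and IV also lay below vehicle without overlap, with mean changes of -5.73%, -4.24% and -2.49%. The ATP synthase sums overlapped there (-2.90%). In dKO the sums of every complex other than complex II overlapped between MTOB and vehicle.

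**Figure D2:**
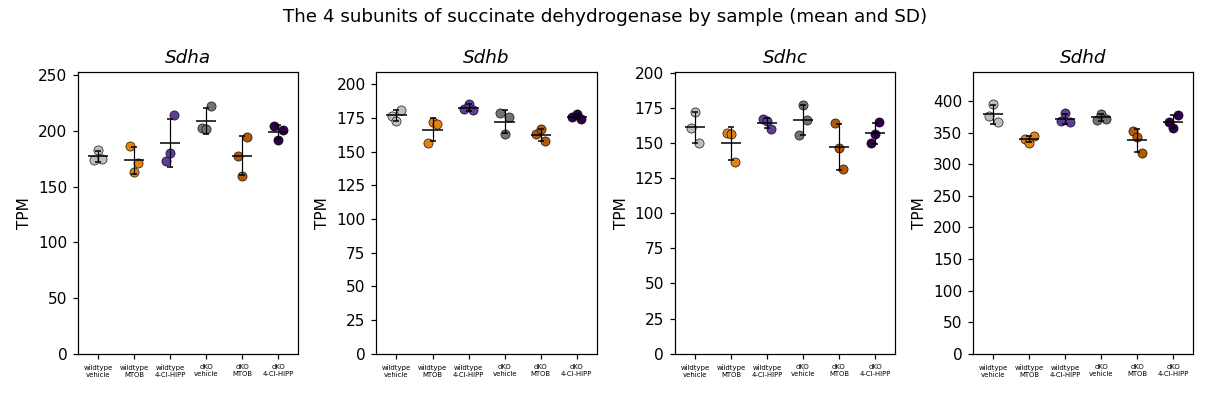
TPM of the 4 succinate dehydrogenase genes in each sample, by genotype and treatment. Dots are samples, lines are means and bars are SD (n = 3). The Sdhd panel shows the MTOB samples of each genotype below their vehicle samples, at 317 to 353 TPM against 366 to 395 TPM.

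The other members called with MTOB came from different complexes. Ndufa11, a membrane-arm subunit of complex I, had 126, 140 and 120 TPM with vehicle and 107, 106 and 104 TPM with MTOB in wildtype (-0.27 ± 0.08, limma adjusted p = 0.0491). In dKO cells its 3 MTOB samples, at 115, 108 and 104 TPM, also lay below the vehicle samples, at 122, 122 and 135 TPM, but the difference of -0.22 ± 0.08 was not called (adjusted p = 0.136). Atp5o, the stalk subunit that gives oligomycin sensitivity, had 419, 417 and 423 TPM with vehicle and 369, 388 and 391 TPM with MTOB in wildtype (-0.13 ± 0.03, adjusted p = 0.0352). In dKO its groups overlapped.

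Cox7a2l, known as a factor for joining complexes III and IV into supercomplexes, was called in dKO cells. Its vehicle samples had 176, 176 and 182 TPM and its MTOB samples 156, 153 and 142 TPM (-0.24 ± 0.06, limma adjusted p = 0.021). In wildtype it went from 161, 187 and 175 TPM to 156, 157 and 141 TPM, again without overlap, and narrowly missed the threshold (-0.20 ± 0.06, adjusted p = 0.0538). Among members of at least 10 TPM, the lowest differences outside the called ones were those of Ndufb5 in wildtype (-0.31 ± 0.10, limma adjusted p = 0.0953) and Ndufa10 in dKO (-0.31 ± 0.15, adjusted p = 0.291). The compared groups overlapped for neither gene. Ndufa10 had 165, 170 and 179 TPM in dKO with vehicle and 158, 120 and 139 TPM with MTOB. Its wildtype vehicle samples, which share the fitted variance, ranged from 120 to 182 TPM. The calls with MTOB depended on the scaling. When TPM were rescaled by median ratios, no member was called in either genotype, the adjusted p of the called members lay between 0.0568 and 0.154, and 66 members in wildtype and 55 in dKO were lower, against 48.5% and 48.1% of all genes. Over 14 alternatives each, which included leaving out single samples, Sdhd passed in 6 for wildtype and 5 for dKO, Cox7a2l in 8, Atp5o in 5 and Ndufa11 in 3, with no change of direction.

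The difference between the MTOB effects in wildtype and dKO was tested directly. No member passed, against 0.0916% of all genes, and 2 members had an unadjusted p below 0.05. These were Cox6c, with the smallest p (0.24 ± 0.09 in the direction wildtype minus dKO, limma adjusted p = 0.669), and Ndufv2 (-0.14 ± 0.06, adjusted p = 0.722).

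**Figure D3:**
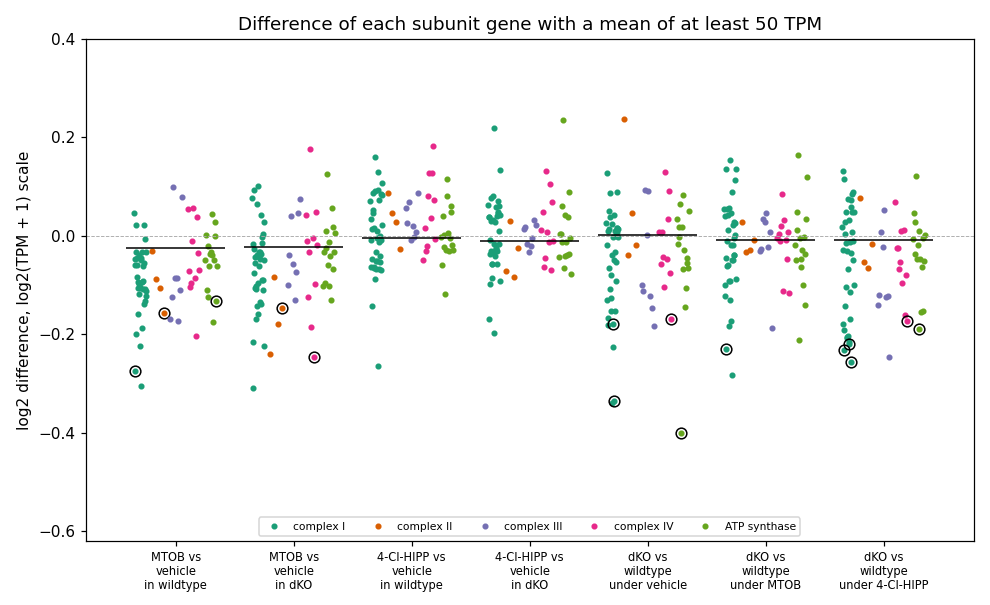
Log2 difference of each member with a mean of at least 50 TPM in 7 comparisons, colored by complex, on the log2(TPM + 1) scale. Open circles mark an adjusted p below 0.05 and black lines the median of all 3275 genes of that level. With MTOB most points lie below the line in both genotypes, and with 4-Cl-HIPP they spread around it.

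The promoters of 4 of the 10 called members with an entry, picked after their values were seen, are printed from the RefSeq promoter table (GRCm38.p6), each covering 250 bases before to 50 after the start in the direction of the gene. Sdhd (chr9:50603800-50604099, minus strand), Cox7a2l (chr17:83514284-83514583, minus strand) and Ndufa11 (chr17:56717512-56717811, plus strand) were lower with MTOB, and Cox8a (chr19:7217567-7217866, minus strand) was lower in dKO cells. Capitals mark letters searched on both strands, GCGCATGCG for NRF1, CCGGAAGT for GABPA, AAGATGGCG for YY1 and the E-box CACCTG.
Sdhd: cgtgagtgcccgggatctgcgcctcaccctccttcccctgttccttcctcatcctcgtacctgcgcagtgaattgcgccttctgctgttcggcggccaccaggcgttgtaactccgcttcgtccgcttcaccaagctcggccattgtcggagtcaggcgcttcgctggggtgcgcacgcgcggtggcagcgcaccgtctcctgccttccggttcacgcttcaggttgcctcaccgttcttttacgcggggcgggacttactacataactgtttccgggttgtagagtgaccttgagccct
Cox7a2l: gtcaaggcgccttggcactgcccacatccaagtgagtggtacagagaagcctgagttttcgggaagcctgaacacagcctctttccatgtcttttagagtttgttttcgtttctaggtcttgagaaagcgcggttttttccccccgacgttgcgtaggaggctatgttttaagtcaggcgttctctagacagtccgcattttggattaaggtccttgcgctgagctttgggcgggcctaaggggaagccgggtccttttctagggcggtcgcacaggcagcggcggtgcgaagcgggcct
Ndufa11: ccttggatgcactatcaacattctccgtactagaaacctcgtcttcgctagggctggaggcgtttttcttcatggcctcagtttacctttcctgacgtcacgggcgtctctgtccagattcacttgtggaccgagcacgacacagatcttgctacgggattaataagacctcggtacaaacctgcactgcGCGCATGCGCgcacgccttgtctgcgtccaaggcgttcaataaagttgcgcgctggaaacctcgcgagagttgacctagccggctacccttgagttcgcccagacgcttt
Cox8a: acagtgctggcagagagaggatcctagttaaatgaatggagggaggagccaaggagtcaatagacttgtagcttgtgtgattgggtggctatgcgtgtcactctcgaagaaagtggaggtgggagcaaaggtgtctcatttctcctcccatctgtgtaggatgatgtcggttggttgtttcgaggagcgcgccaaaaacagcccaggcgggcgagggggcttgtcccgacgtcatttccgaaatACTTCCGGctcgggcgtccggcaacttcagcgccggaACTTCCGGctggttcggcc

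NRF1 and GABPA are transcription factors long known to act on respiratory chain genes. The Ndufa11 promoter held the NRF1 letters on both strands, overlapping in the 10 capitals at bases 191 to 200. The Cox8a promoter held the GABPA letters at 2 places, bases 245 to 252 and 282 to 289, on the strand opposite to the one printed. Neither the Sdhd nor the Cox7a2l window held any of the 4 runs. Of the other 6 called members with an entry, Atp5h held the GABPA letters, Ndufc1 the YY1 and E-box letters and Ndufb7 the E-box, while Atp5o, Atp5g1 and Ndufc2 held none. In the table, 67 members matched 66 promoters. NRF1 letters were in 8 of these (12.1%) and in 1.81% of all 27025 promoters, YY1 letters in 6 (9.09%) and 1.49%, GABPA letters in 5 (7.58%) and 4.0%, and the E-box, added after values had been seen, in 14 (21.2%) and 20%. Median GC content was 58.5% in the member promoters and 52.7% in all. Among the 18 with NRF1, GABPA or YY1 letters were Ndufc1, Cox6a1, Atp5g2 and Uqcrh. Atp5a1, Atp5mpl, Cox4i1, Cox4i2, Cox6a2, Cox6c, Cox6c2, Ndufa2, Ndufa4l2, Ndufb4c, Ndufb9, Ndufs1, Ndufs6b, Sdhc, Uqcrb, Uqcrc2 and Uqcrq were among those with no entry.

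With 4-Cl-HIPP, which was compared with the same vehicle samples as MTOB, subunit levels were close to vehicle. In wildtype 39 of 85 members were lower (median 0.01, and -0.01 with 47 lower when TPM were rescaled by median ratios) and in dKO 45 (median -0.01). No member was called in wildtype, against 0.366% of all genes (0.14% beyond 1.5-fold), and 3 had an unadjusted p below 0.05. None was called in dKO either, against 0.501% (0.153% beyond 1.5-fold), where 2 had an unadjusted p below 0.05. The smallest adjusted p in wildtype was that of Cox4i2, which had 1.82, 2.26 and 3.47 TPM with vehicle and 4.39, 4.44 and 5.07 TPM with 4-Cl-HIPP (0.71 ± 0.17, limma adjusted p = 0.121). All 3 treated samples exceeded the vehicle samples, at levels that made up 0.642% to 0.755% of the summed Cox4i1 and Cox4i2 TPM. In the test of the 4-Cl-HIPP effect between genotypes, no member and 0% of all genes passed, and Cox4i2 again had the smallest member p (0.78 ± 0.24 in the direction wildtype minus dKO, adjusted p = 0.963). MTOB and 4-Cl-HIPP were given at different doses, and their values are not compared.

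Between genotypes, 1 subunit differed far more than the rest. Cox4i2, the isoform of cytochrome c oxidase subunit 4 known from lung and from cells under low oxygen, lies on chromosome 2 at chr2:152595625-152606959 on the plus strand (GRCm39). It had 27.9, 27.8 and 29.8 TPM in the dKO vehicle samples, against the 1.82, 2.26 and 3.47 TPM of wildtype given above. With MTOB it had 26.3, 23.9 and 26.9 TPM in dKO and 3.68, 2.08 and 3.13 TPM in wildtype, and with 4-Cl-HIPP 24.0, 29.3 and 28.05 TPM in dKO. Every dKO sample was above every wildtype sample. The differences were 3.10 ± 0.17 with vehicle (limma adjusted p = 5.15e-09), 2.77 ± 0.17 with MTOB (adjusted p = 1.84e-08) and 2.32 ± 0.17 with 4-Cl-HIPP (adjusted p = 1.5e-07).

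The common isoform Cox4i1 was at similar levels in each genotype. Its 18 samples lay between 662 and 739 TPM, and the wildtype and dKO vehicle means were 697 ± 35.1 and 701 ± 18.6 TPM (SD, n = 3). Of the 2 isoforms' summed TPM, Cox4i2 made up 0.273% to 0.755% in wildtype samples and 3.32% to 3.98% in dKO samples. Cox4i1 was therefore the bulk of the pair in every sample.

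Cox6a2 went the opposite way. This muscle isoform of subunit 6a, on chromosome 7 at chr7:127804607-127805559 on the minus strand (GRCm39), had 3.28, 3.64 and 2.19 TPM in wildtype and 1.436, 0.729 and 0.795 TPM in dKO with vehicle. With MTOB it had 3.40, 1.96 and 3.13 TPM against 0.457, 0.446 and 0.777 TPM, and with 4-Cl-HIPP 2.70, 2.53 and 3.71 TPM against 0.424, 0.747 and 0.823 TPM. All 9 dKO samples were below all 9 wildtype samples, at levels of a few TPM at most. The differences were -1.02 ± 0.21, -1.28 ± 0.21 and -1.25 ± 0.21 (limma adjusted p = 0.0036, 0.000549 and 0.000674). At such levels the pseudocount sets much of the size, and with a pseudocount of 5 or 0.1 the values across comparisons ran from -0.42 to -2.15. With a pseudocount of 5 none of the 3 differences reached 1.5-fold. Cox6a1, the common isoform, stayed between 491 and 585 TPM, and Cox6a2 was 0.387% to 0.684% of the pair in wildtype and 0.078% to 0.262% in dKO.

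**Figure D4:**
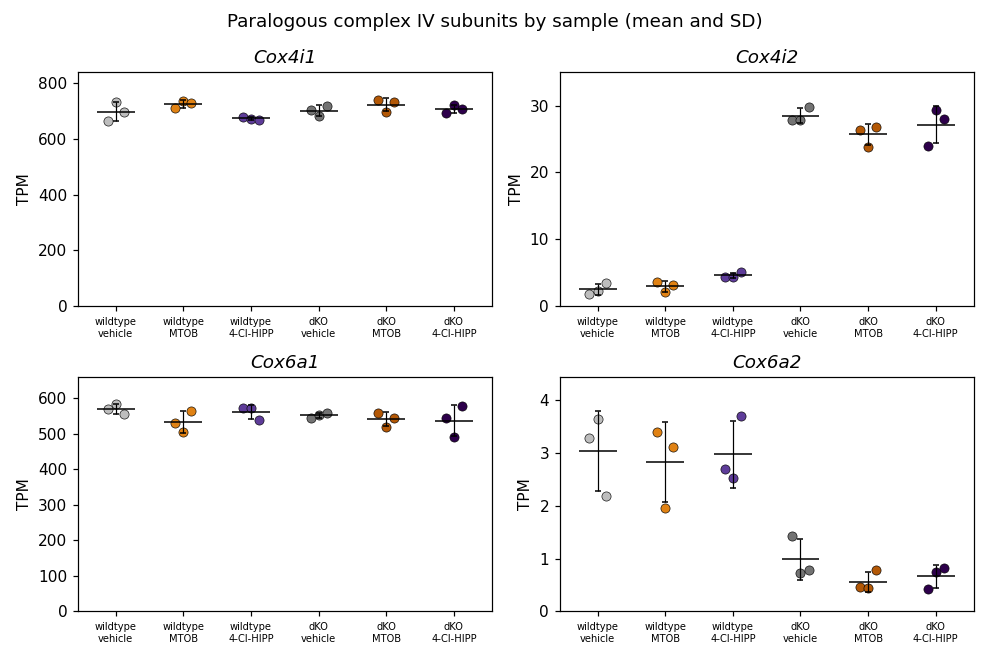
TPM of the common and tissue-restricted isoforms of complex IV subunits 4 and 6a in each sample. Dots are samples, lines are means and bars are SD (n = 3). Each panel has its own axis from 0. Cox4i2 is at 23.9 to 29.8 TPM in dKO and Cox6a2 at 0.424 to 1.436 TPM in dKO, on either side of wildtype, while Cox4i1 and Cox6a1 are level.

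With vehicle, 6 members (7.06%) differed between dKO and wildtype at an adjusted p below 0.05, against 10.7% of all genes. Cox4i2 and Cox6a2 were also past 1.5-fold (2.35%, against 4.83% of all genes), and 5 of the 6 were lower in dKO (5.88%, against 3.72%). Of the 3275 genes of at least 50 TPM, 560 were called with vehicle, 214 of them lower in dKO, larger shares than among all genes. When only the compared groups were fitted, 1 member was called lower and 2 higher. Atp5g1, 1 of 3 genes for the same c-ring protein of ATP synthase, had 157, 178 and 171 TPM in wildtype and 130, 139 and 116 TPM in dKO (-0.40 ± 0.09, limma adjusted p = 0.0104). Its groups did not overlap with vehicle, but with 4-Cl-HIPP the dKO samples, at 133, 161 and 159 TPM, overlapped the wildtype samples, at 149 to 159 TPM. The sister genes Atp5g2 and Atp5g3 were not called, and Atp5g1 made up 15.7% to 20.1% of the 3 genes' TPM in wildtype and 13.2% to 17.7% in dKO.

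The remaining calls with vehicle were small. Ndufc1 had 330, 290 and 355 TPM in wildtype and 279, 253 and 239 TPM in dKO (-0.34 ± 0.10, limma adjusted p = 0.0371). Ndufb7, a complex I subunit facing the intermembrane space, had 182, 199 and 196 TPM in wildtype and 167, 165 and 177 TPM in dKO (-0.18 ± 0.05, adjusted p = 0.0442). Cox8a, the common isoform of subunit 8, had 658, 632 and 645 TPM against 542, 576 and 606 TPM (-0.17 ± 0.05, adjusted p = 0.0311). None of these overlapped between genotypes. Over 14 alternatives, Atp5g1 passed in 11, Ndufc1 in 9, Cox8a in 7 and Ndufb7 in 6.

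With MTOB present, 3 members (3.53%) differed between genotypes, against 11.2% of all genes, 2 of them past 1.5-fold (4.95% of all genes) and 2 lower in dKO (4.18%). Beside Cox4i2 and Cox6a2 this was Ndufa2, a peripheral-arm subunit of complex I, with 255, 254 and 266 TPM in wildtype and 243, 215 and 204 TPM in dKO (-0.23 ± 0.07, limma adjusted p = 0.0401). With 4-Cl-HIPP, 7 members (8.24%) differed, against 10.2% of all genes, 2 past 1.5-fold (4.72%) and 6 lower in dKO (3.63%). Ndufb7 and Cox8a were among them again, with Ndufa2 (-0.23 ± 0.07, adjusted p = 0.0397), Ndufc2 (-0.26 ± 0.07, adjusted p = 0.0408) and Atp5h, a peripheral stalk subunit. Atp5h had 399, 417 and 385 TPM in wildtype and 349, 361 and 343 TPM in dKO with 4-Cl-HIPP (-0.19 ± 0.05, adjusted p = 0.0177), but 365 to 391 TPM and 358 to 367 TPM with vehicle, where it was not called. Of the 3275 genes of at least 50 TPM, 565 were called with MTOB (231 lower in dKO) and 517 with 4-Cl-HIPP (197 lower).

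Complex III held no called member in any comparison. Its lowest value between genotypes was that of Uqcrq, a small membrane subunit, with 314 ± 12.9 TPM in dKO and 357 ± 29.5 TPM in wildtype with vehicle, and -0.25 ± 0.08 with 4-Cl-HIPP (limma adjusted p = 0.0548). By summed TPM, the dKO vehicle mean was 5.06% below wildtype for complex III and 3.53% below for complex I, while complex II was 3.12% above.

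**Figure D5:**
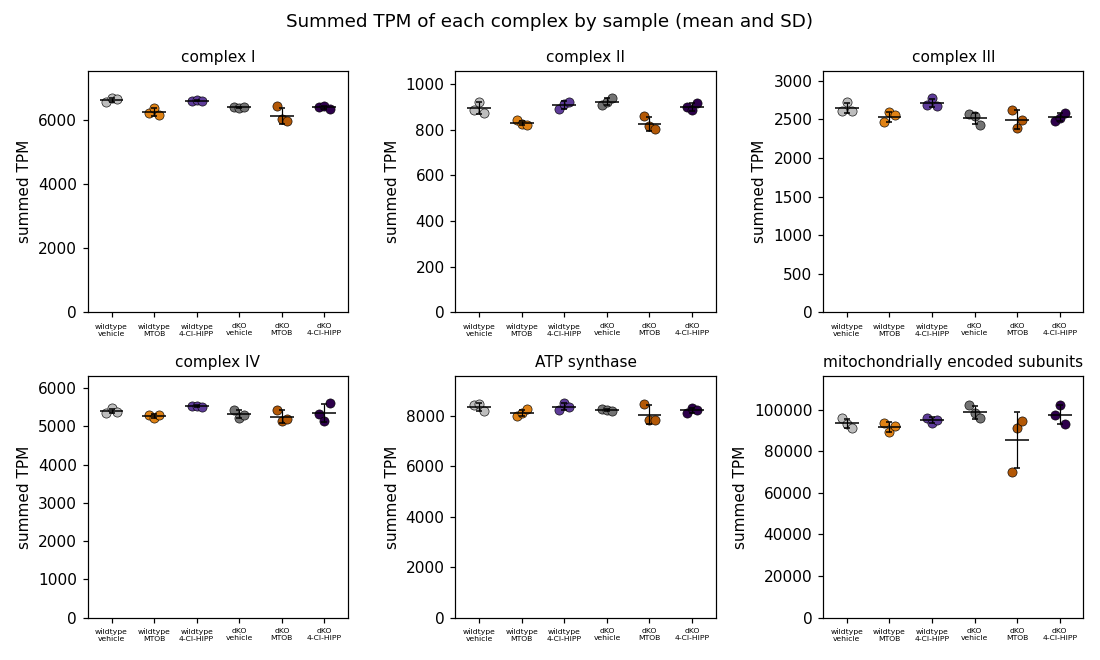
Summed TPM of the members of each complex, and of the 13 subunits encoded in mitochondrial DNA, in each sample. Dots are samples, lines are means and bars are SD (n = 3), on axes from 0. The nuclear sums differ little between groups, and 1 dKO MTOB sample has a mitochondrially encoded sum of 69852 TPM, below all others.

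The mitochondrial genome encodes 13 partners of these subunits, which took 69852 to 102148 TPM, several times the nuclear sum. Replicate 1 of the dKO MTOB group stood apart at 69852 TPM, its companions having 91449 and 94736 TPM, and its nuclear members summed to 23809 TPM, against 22168 and 22270 TPM in those samples. Without that sample, 71 members were lower with MTOB in dKO, the median was -0.09, and Cox6c was called beside Sdhd and Cox7a2l. The shares of all genes lower or called were not computed without it, so a shift of all genes cannot be told apart. Among the 13 genes, 3 were called lower with MTOB in dKO, against 3.54% of all genes, and 1 when the sample was left out. In wildtype none was called, against 7.26% of all genes. Between genotypes with vehicle, 6 of the 13 were lower in dKO, against 45.9% of all genes. The median difference was 0.07 and the summed mean was 5.82% above wildtype. mt-Co1, the catalytic core subunit of complex IV, was called higher (0.12 ± 0.04, limma adjusted p = 0.0417). mt-Nd1, a core subunit of complex I, was called lower in dKO than in wildtype with vehicle (-0.12 ± 0.03, limma adjusted p = 0.024), MTOB (-0.18 ± 0.03, adjusted p = 0.00161) and 4-Cl-HIPP (-0.19 ± 0.03, adjusted p = 0.001).

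Of 14 TCA cycle genes, 14 were lower with MTOB in wildtype and 14 in dKO, against 51.6% and 52.5% of all genes, and 2 were called lower in each, against 3.46% and 3.54%. These were Cs, citrate synthase (-0.13 ± 0.03, limma adjusted p = 0.0169 in wildtype, and -0.17 ± 0.03, adjusted p = 0.00296 in dKO), and Idh3g, a subunit of NAD-dependent isocitrate dehydrogenase (-0.17 ± 0.05 and -0.19 ± 0.05, adjusted p = 0.0302 and 0.0197). With TPM rescaled by median ratios, 14 and 11 of them were lower, against 48.5% and 48.1% of all genes, and Cs alone was called, in both genotypes. Of 11 electron and proton partners, 11 were lower with MTOB in wildtype and 9 in dKO, with 0 called in each, and 10 and 6 were lower after that rescaling. Between genotypes, Ucp2, an inner-membrane carrier of the uncoupling protein family, was called higher in dKO and Slc25a5, an ADP/ATP carrier, lower, with every treatment.

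Assembly factors, which build the complexes without being part of them, were near evenly split with MTOB. Of 45, 25 were lower in wildtype and 22 in dKO, with 0 called in wildtype and 1, Cox19, called higher with MTOB in dKO cells, from 24.5 ± 3.57 to 34.8 ± 2.35 TPM (SD, n = 3). The same gene was called lower in dKO than in wildtype with vehicle, where wildtype had 37.1 ± 3.42 TPM (-0.59 ± 0.14, limma adjusted p = 0.0104). Between genotypes, 2 of the 45 were called lower and 2 higher in dKO with vehicle, 0 and 2 with MTOB, and 2 and 1 with 4-Cl-HIPP. Of all genes, 10.7%, 11.2% and 10.2% were called in these comparisons. Cox17, the copper chaperone of complex IV, was called higher in dKO with vehicle (0.35 ± 0.09, limma adjusted p = 0.0232), MTOB (0.57 ± 0.09, adjusted p = 0.000574) and 4-Cl-HIPP (0.54 ± 0.09, adjusted p = 0.000982). Ndufaf2, an assembly factor of complex I, was called lower in dKO with vehicle (-0.45 ± 0.13, adjusted p = 0.034) and with 4-Cl-HIPP. Uqcc2, an assembly factor of complex III, was called higher in dKO with vehicle and MTOB (0.31 ± 0.08 and 0.33 ± 0.08, adjusted p = 0.0127 and 0.00798), and Sdhaf1, an assembly factor of complex II, lower with 4-Cl-HIPP (-0.47 ± 0.11, adjusted p = 0.0118). Among 15 nuclear regulators of respiratory genes and factors of mitochondrial transcription, 11 were lower with MTOB in wildtype and 14 in dKO, against 51.6% and 52.5% of all genes. With TPM rescaled by median ratios, 10 and 13 were lower, against 48.5% and 48.1%. In wildtype 0 were called, against 7.26% of all genes, and in dKO 1, against 6.58%. The 1 called was Lrpprc, which stabilises mitochondrial transcripts (-0.29 ± 0.05, limma adjusted p = 0.00248). Pprc1 and Ppargc1b, co-activators of the PGC-1 family, were called higher in dKO with vehicle (0.24 ± 0.05 and 0.25 ± 0.07, adjusted p = 0.00737 and 0.0208). With vehicle 10.7% of all genes were called, and neither of these genes was called with MTOB or 4-Cl-HIPP. Gabpb1, from the same list, was called lower in dKO with MTOB (-0.32 ± 0.09, limma adjusted p = 0.0218).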

How the data were processed

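RNA-seq was carried out on 18 samples of J774.1 cells (6 groups, n = 3). PolyA RNA is given in the labels and rRNA depletion in the methods. The kit was unstranded, so overlapping genes on opposite strands cannot be told apart. The authors quantified transcripts with Salmon 1.9.0 on Gencode M28 (GRCm39) with GC correction, imported them with tximport and deposited TPM per gene, which the header calls scaled TPM. The authors also deposited, as a signal, each gene's DESeq2 1.44.0 normalized count averaged across samples, which served here for the expression limit and the variance trend. Their 8 columns of fold changes and adjusted p-values were not used.

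Members were found by symbol, and members and lists were chosen with earlier results of these data known. Genes with a mean normalized count above 0.222 were fitted on log2(TPM + 1) with 6 group means over all samples in limma 3.58.1 (R 4.3.3), using moderated variances with a trend on that averaged count. p-values are two-sided and were adjusted by Benjamini-Hochberg over 16383 genes. Calls needed an adjusted p below 0.05, and a stricter rule also a fold above 1.5. The value after ± is the SE of a difference. Named genes were the called members, the highest and lowest by level, the isoforms, and the largest differences at a mean of at least 10 TPM. Single values named beyond these were chosen after their values were seen. The procedure was tested on simulated data. The changes planted there were larger than any member difference with MTOB, so the simulation does not show how well such small differences are found. Positions are from Gencode (GRCm39) and promoters from RefSeq (GRCm38.p6). Plots were made in Python 3.11.15 (matplotlib 3.10.9).

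Replicate numbers were not used to pair the samples in the main fit. Deviations of same-numbered samples correlated at -0.141 to 0.0909 over 45 pairs, with 0 pairs above 0.1. With 3 samples a group, these values show no pairing but cannot exclude it.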

Additional observations from a re-analysis of the deposited data

How the results depend on the processing

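Differences were recomputed with pseudocounts of 0.1 and 5, without the expression limit, at a mean normalized count of at least 10, on TPM rescaled by median ratios, on the compared groups alone, without the variance trend, with a replicate block, and without each sample in turn. No called member changed direction. Cox4i2 passed under all of its 14 alternatives in each genotype comparison, with adjusted p (limma) from 6.33e-10 to 0.00166, and Cox6a2, which the mean count of at least 10 removed, missed the threshold once in its 13 alternatives a comparison, on the compared groups alone with vehicle (adjusted p = 0.051).

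The calls with MTOB depended on the setting. Against 3 called members in wildtype and 2 in dKO, median-ratio rescaling gave 0 and 0, the compared groups alone 0 and 0, no variance trend 0 and 1, and the replicate block 1 and 1. Leaving out 1 sample gave 0 to 3 calls in wildtype and 0 to 3 in dKO. In wildtype the count was 0 without vehicle replicate 2 or MTOB replicate 1 and 1 without vehicle replicate 1 or MTOB replicate 2, and in dKO it was 0 without any 1 vehicle replicate, 1 without MTOB replicate 2 or 3 and 3 without MTOB replicate 1. For dKO against wildtype, the 6 calls with vehicle (5 lower, 1 higher) became 3 on the compared groups alone (1 lower, 2 higher) and 3 to 4 with 1 sample left out, where wildtype replicate 2 or 3 or dKO replicate 2 gave 3. The 3 calls with MTOB ranged from 2 to 5, the 5 without dKO replicate 1. The 7 with 4-Cl-HIPP became 4 without the trend and ranged from 3 to 5 with 1 sample left out, with 4 without wildtype replicate 1 and 3 without wildtype replicate 2 or dKO replicate 3. The cause was not tested. The 0 calls with 4-Cl-HIPP and for the effect differences are counted beside 3, 2, 2 and 4 members with an unadjusted p below 0.05. The replicate block changed no other count beyond 1.5 times, and 1 of 18 samples correlated best with its own number.

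With 3 samples a group and no read depth, precision was limited, and the smallest difference called in a member was -0.13 (log2).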

Other observations

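The 6 rows set aside as pseudogenes were Ndufa12-ps, Atp5l-ps1, Cox7c-ps1, Ndufs5-ps, Atp5pb-ps and Cox5b-ps. Ndufa12-ps had a mean of 70.2 TPM over 18 samples (47.1 to 105 TPM), beside 245 TPM for Ndufa12, and Atp5l-ps1 had 16.7 TPM. The other four lay between 0.666 and 7.94 TPM.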
